A study of Mus musculus with 78 samples.

Results

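Retinal ganglion cells are the neurons whose axons form the optic nerve. The genes described here are Sncg, Nefl, Nefm, Nefh, Rbpms, Nrn1, Thy1, Uchl1, S100a10 and Tppp3, taken by name as general markers of ganglion cells and subunits of their neurofilaments. Each was read from the probe set of the deposited table whose single gene symbol is that name. All 10 had 1 such probe set, so the panel is 10 of the 19301 genes in the table, and all 10 passed the filter on dim genes that left 15102 genes for testing. A gene passed if its highest set mean lay above the median of all values. Nrn1 passed through the ganglion sets alone, as no other set averaged above that median, and it is kept in the counts of members below.

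Adult retinas of 22 transgenic mouse lines were dissociated for 15 min, and 200 fluorescent cells were sorted for each sample. The total RNA of each sample went to 1 of 78 arrays, which form 26 sets of 3 biological replicates. The ganglion class holds 12 arrays from 4 lines. The PV line of batch 1 is 129SVCB6(PV-CRE#32)SA-09, crossed to ThyStopY, with a GFP label. The Drd4 line of batch 3 is Tg(Drd4-EGFP)W18Gsat/Mmnc, an EGFP line whose description gives RFP. The Grik4 line is C57BL/6-Tg(Grik4-Cre)G32-4Stuj and the Opn4 line, which marks melanopsin ganglion cells, is mOpn4-Cre1D4, both of batch 3 and crossed to Rosa26-LSL-RFP. ThyStopY is a reporter under Thy1 regulatory sequence, so the PV cells were picked through Thy1 sequence as well as through the PV driver.

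The 66 other arrays hold 9 amacrine lines (33 arrays), 4 bipolar lines (12), 3 photoreceptor lines (15), a horizontal cell line (3) and a microglia line (3). The amacrine lines are Tg(Arc-EGFP)194Gsat/Mmcd, Tg(Igfbp2-EGFP)17Gsat, Tg(Rgs5-EGFP)24Gsat, Tg(Chrna3-EGFP)BZ135Gsat/Mmnc, Tg(6430514L14Rik-EGFP)95Gsat (called Fam81a), Tg(Fbxo32-EGFP)138Gsat/Mmcd and Tg(Ier5-EGFP)267Gsat. The other amacrine lines, Tg(Crh-Cre)282Gsat/Mmnc and 129S6-Chat_tm1(cre)Lowl/J (ChAT, starburst cells), were crossed to Rosa26-LSL-RFP. Among bipolar lines, B6Cf1-Tg(mGlur6-Cre)BR and B6Cf1-Tg(Kcng4-CreERT2, #)BR were crossed to Rosa26-LSL-RFP, while B6:FVB-Tg(Pcp2-EGFP)2Yuza and Tg(Lhx4-EGFP)199Gsat carry EGFP. The photoreceptor lines are b2-Cre and d4-Cre, crossed to Rosa26-LSL-RFP, and Tg(Chrnb4-EGFP)1Gsat. The horizontal line is B6Cf1-Tg(Gja10-Cre, #14)BR crossed to Rosa26-LSL-RFP, and the microglia line Tg(Csf2rb2-EGFP)334Gsat. Arc was measured as a 1st, 2nd and 3rd set and b2 as a 1st, a 2nd and a single set. All samples share a mixed background of C57BL/6J and FVB/N-Swiss Webster hybrid, and part of the parental stock is stated to carry a recessive mutation that causes photoreceptor degeneration.

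Neurofilaments are the intermediate filaments of axons. The light, medium and heavy chains, encoded by Nefl, Nefm and Nefh, assemble together with alpha-internexin, encoded by Ina, and their amount bears on the calibre of large axons. Ganglion cells are the retinal neurons with long axons that leave the eye, and antibodies to neurofilaments, Thy1, Rbpms or gamma-synuclein are common means of marking them.

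Promoter sequence was at hand for Sncg, which encodes gamma-synuclein, and Uchl1, which encodes a neuronal ubiquitin hydrolase. Both are shown because no such sequence was at hand for the other members. They are the 250 bases before the start site, from RefSeq on GRCm38.p6, 5′ to 3′ on the strand of the gene. Sncg lies on the minus strand at chr14:34374670-34374919 and Uchl1 on the plus strand at chr5:66675871-66676120.
Sncg: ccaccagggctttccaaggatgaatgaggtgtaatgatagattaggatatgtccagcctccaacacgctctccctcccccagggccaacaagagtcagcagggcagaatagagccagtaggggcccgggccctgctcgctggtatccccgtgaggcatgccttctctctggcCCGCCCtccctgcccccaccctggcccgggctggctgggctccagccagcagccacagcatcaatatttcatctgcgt
Uchl1: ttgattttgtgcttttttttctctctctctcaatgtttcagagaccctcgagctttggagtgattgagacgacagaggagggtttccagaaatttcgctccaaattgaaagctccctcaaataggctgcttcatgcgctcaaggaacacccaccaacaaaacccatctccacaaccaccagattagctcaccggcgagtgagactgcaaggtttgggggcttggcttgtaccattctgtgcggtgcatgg
Capitals mark a GC box (GGGCGG on either strand, no overlap with another motif searched) at positions -78 to -73 from the Sncg start site. A window of 300 bases, which runs 50 bases past the start, was searched on both strands. A GC box stands in 35.9% of the 27025 such promoters. TATAAA stands in 14.2% of all promoters, CCAAT in 37.9%, CAGCTG in 16.1%, TAATTA in 5.31%, ATGCAAAT in 1.75% and TGACGT in 7.64%, and none of these letters stands in the window of Sncg or Uchl1. The window of Sncg has 61.3% G and C and that of Uchl1 50.7%, against a median of 52.7% over all promoters. The other members are Nefl, Nefm, Nefh, Rbpms, Nrn1, Thy1, S100a10 and Tppp3.

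Levels are given as log2 of the deposited intensity, 1 value per array. The values are normalised so that every array has the same distribution, with a median of 3.17 and a highest value of 12.49. Values at or below 2.00 are taken as the floor of the table. The cut comes from the array with the longest run of lowest values in the order of probe set identifiers, 2342 values. Values in such a run carry no order of level. On 70 of the 78 arrays the run had 10 or more values, and the cut was applied to all arrays. Levels of different genes come from different probes and are not compared. A difference is called where the Benjamini-Hochberg adjusted p of limma, over all 15102 genes tested in that comparison, is below 0.05 and the difference is at least 1 log2 unit. Arrays of a set correlated across genes with a lowest r between 0.70 (Crh) and 0.97 (Gja10). The lowest r was under 0.8 in the Chrnb4, Lhx4, Crh, Chrna3 and Drd4 lines, Drd4 at 0.78.

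Markers of other cells differed between the ganglion arrays. The PV arrays were low for markers of endothelium (0 of 8 with a set mean above the median of all values, summed intensity 47.0 to 50.2), microglia (2 of 9, 67.6 to 80.1) and photoreceptors (1 of 11, 26.4 to 40.2, with 9 of 11 at the floor). The summed intensity of endothelial markers was 161 to 646 in the Drd4 arrays, 541 to 1098 in the Grik4 arrays and 47.8 to 169 in the Opn4 arrays. Microglia markers summed to 110.2 to 333 in Drd4, 847 to 2196 in Grik4 and 77.5 to 229 in Opn4 arrays. Markers of Müller glia and astrocytes summed to 400.5 to 648 in PV, 2006 to 7662 in Drd4, 1281 to 3983 in Grik4 and 396 to 1960.4 in Opn4 arrays. Of 8 amacrine markers 7 were measured, and 4 averaged above the median of all values in PV, 7 in Drd4, 6 in Grik4 and 5 in Opn4. They summed to 182 to 208 in PV, 324 to 547 in Drd4, 441 to 596 in Grik4 and 158 to 222 in Opn4 arrays, against 746 to 1520.4 in the arrays of amacrine sets. The median level of the amacrine list was 6.25 in Grik4, 5.05 in Drd4, 3.84 in Opn4 and 3.58 in PV, against 5.18 to 8.02 in the amacrine sets, so Grik4 and Opn4 lay on opposite sides of the lowest amacrine set. Replicate 1 of Drd4 had the highest sums of bipolar (2291), photoreceptor (1848) and Müller glia markers of the 12 ganglion arrays, and replicate 2 of Grik4 the highest sums of endothelial, microglia and pigment epithelium (3481) markers. The plot of marker sums shows these arrays standing above the PV arrays. In arrays of sorted cells, fewer cells of a type and less RNA per cell cannot be told apart.

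**Figure D1:**
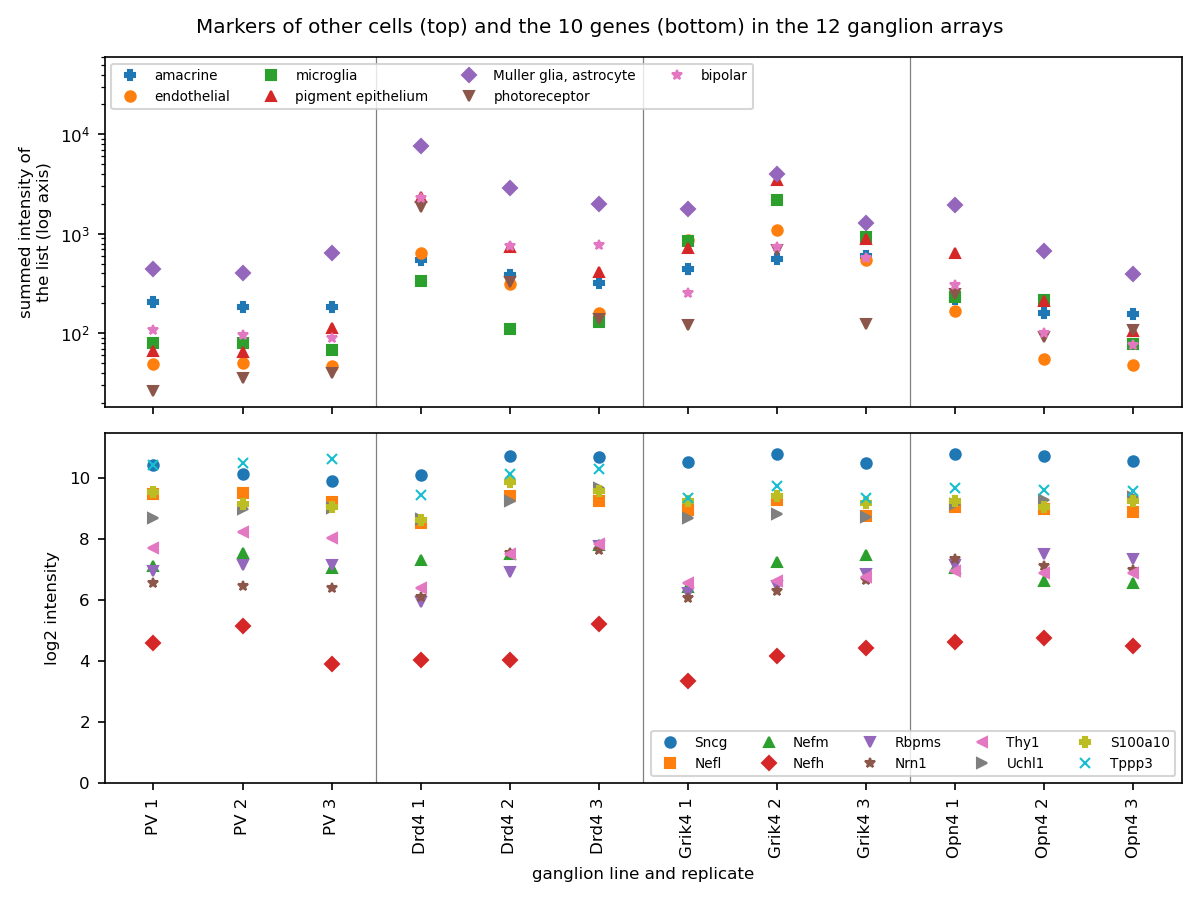
Top, summed intensity (log axis) of marker lists of other cell types in each of the 12 ganglion arrays; bottom, log2 intensity of the 10 genes in the same arrays, grouped by line in the order PV, Drd4, Grik4 and Opn4. Replicate 1 of the Drd4 line has Müller glia and astrocyte markers at 7662 and Sncg at 10.10, against 10.74 and 10.70 for Sncg in replicates 2 and 3.

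As a check of the labels, Slc17a6, the vesicular glutamate transporter of ganglion cells, averaged 5.94 in PV, 5.90 in Drd4, 5.44 in Opn4 and 4.78 in Grik4, above 3.48 in the next set, Ier5. Pou4f1, a transcription factor of ganglion cells, averaged 5.10 in PV, 4.99 in Drd4, 3.87 in Opn4 and 3.62 in Grik4, above 2.85 in the next set, Crh. The gene Opn4 averaged 7.22 in the Opn4 line and 3.82 in the next set, b2 1st. Pvalb, which encodes parvalbumin, averaged 9.05 in the PV line and 8.29 in the Drd4 line. The gene Grik4 averaged 2.82 in the Grik4 line, the lowest of the 26 sets and under the median of all values. The gene Drd4 averaged under the floor in the Drd4 line and was highest at 9.49 in the b2 2nd set of rods.

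Most of the 10 members had higher levels in the ganglion lines than in the other sets. For Sncg, Nefl, Rbpms, Nrn1, S100a10 and Tppp3, that is 6 of 10 members, every one of the 12 ganglion arrays lay above every one of the 66 other arrays, which held for 16 of the 15102 genes tested (0.106%). The 4 ganglion set means lay above the 22 other set means for 8 of 10 members, the 6 above with Nefm and Uchl1, against 112 of all genes (0.742%). Thy1 and Nefh did neither. Nrn1, counted at both levels, passed the filter on dim genes through the ganglion sets alone. The members and the gene lists used below were chosen with earlier results of these data known, so their counts beside all genes are no independent check. The map of set means shows this row by row, each gene against itself across sets.

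**Figure D2:**
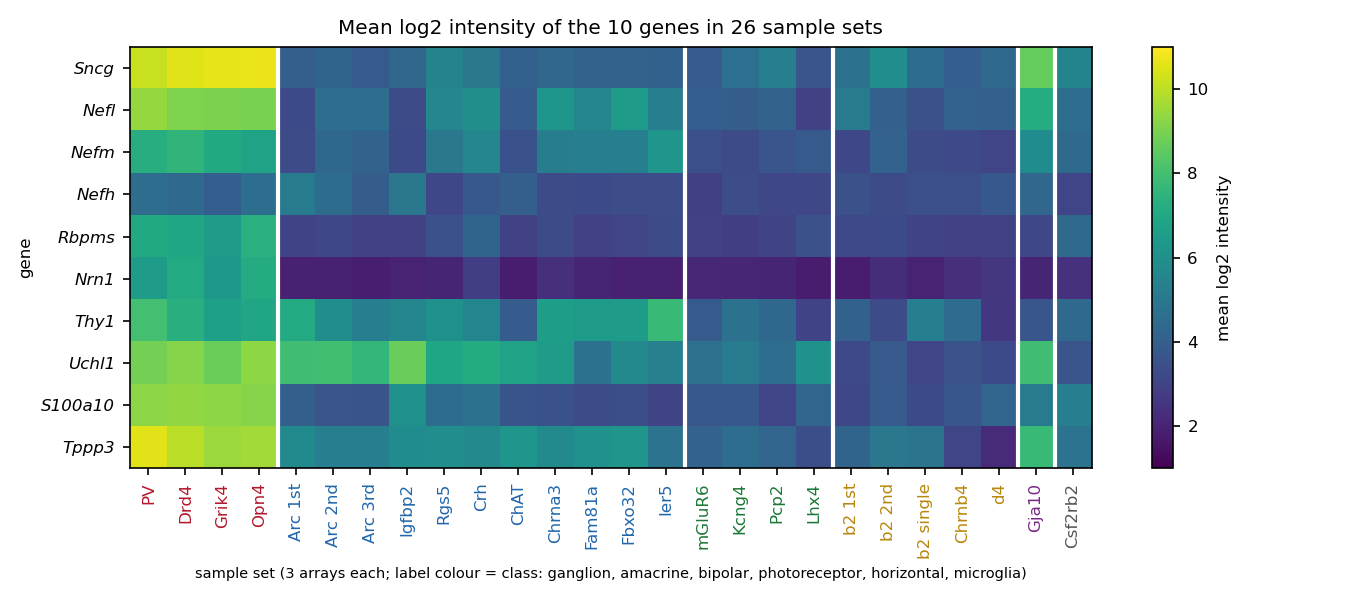
Mean log2 intensity (colour) of each of the 10 genes in the 26 sample sets, 3 arrays each, ganglion sets first and the other classes after them, separated by white lines. In 8 rows the 4 ganglion columns lie above the 22 others, the exceptions being Nefh and Thy1, and the Gja10 column is the next highest for Sncg (8.62), Nefl (7.20) and Tppp3 (7.73).

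Over line means, 8 of 10 members were called higher in the 4 ganglion lines than in the 9 amacrine lines, where 1.33% of all genes tested were called in either direction and 1.17% called higher. With the lines of batch 1 alone, where PV is the single ganglion line, the count was 4 and 0.212% of all genes were called. The median difference of the 10 members was 3.83 log2 units, against 0.01 over all genes tested. Against the 4 bipolar lines all 10 were called higher (4.68% of all genes called), against the 3 photoreceptor lines 9 (13.1%), against the horizontal line 3 (0.901%) and against the microglia line 8 (10.6%). The horizontal and microglia classes are 1 line each, so their spread is taken from the other classes. Nrn1, which passed the filter on dim genes through the ganglion sets alone, is among the members called against each class over all lines. The plot of every array by class shows the ganglion arrays as a group of their own for most genes and overlapping with amacrine arrays for Thy1, Nefh, Uchl1 and Nefm.

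**Figure D3:**
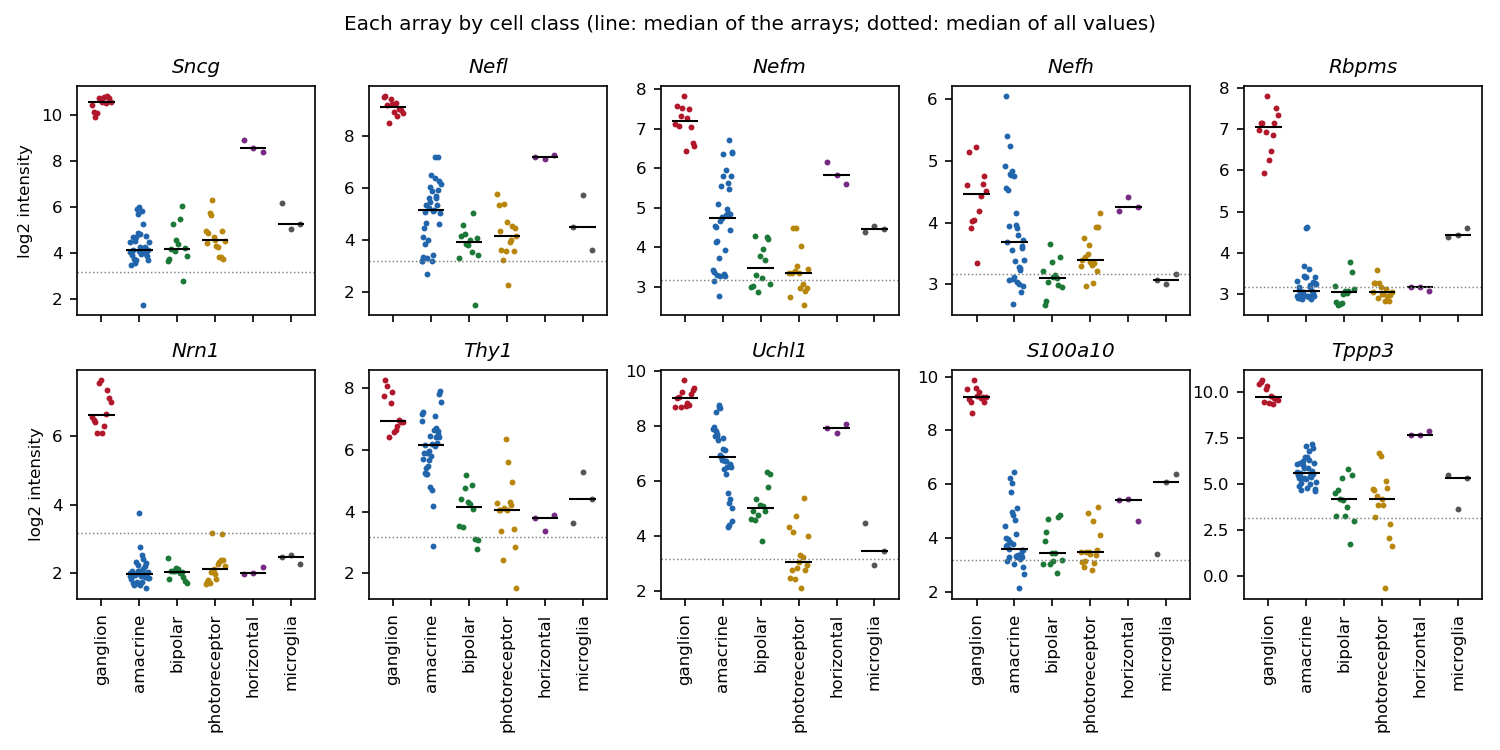
Log2 intensity of the 10 genes in each of the 78 arrays, 1 point per array, by cell class with the ganglion class first; the bar is the median of the class's arrays and the dotted line the median of all values, 3.17. Sncg lies between 9.93 and 10.81 in the ganglion arrays and reaches 8.91 elsewhere, while Nefh lies between 3.36 and 5.23 in the ganglion arrays and reaches 6.04 in an amacrine array.

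Sncg encodes gamma-synuclein, a small soluble protein of axons and nerve terminals. Its levels were 10.44, 10.13 and 9.93 in PV, 10.10, 10.74 and 10.70 in Drd4, 10.55, 10.79 and 10.51 in Grik4, and 10.81, 10.73 and 10.56 in Opn4 arrays. The 66 other arrays had a lowest level under the floor, a median of 4.42 and a highest of 8.91. All ganglion arrays were higher than all others, and the horizontal line, with 8.91, 8.55 and 8.40, lay between the ganglion lines and the rest of the retina. The next set below it was b2 2nd, with 5.74, 5.65 and 6.29. Sncg averaged 10.50 ± 0.23 in the ganglion lines (SD, n = 4 lines) and 4.41 ± 0.49 in the amacrine lines (n = 9), a difference of 6.09 (SE 0.32, adjusted p = 3.27e-10) or 68.2-fold. The difference was 6.13 (SE 0.37) against bipolar, 6.01 (SE 0.40) against photoreceptor and 5.0 (SE 0.59) against microglia lines, all called. Against the horizontal line it was 1.88 (SE 0.59, adjusted p = 0.24) and was not called.

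Nefl encodes the light neurofilament chain, on which the other chains assemble. Its levels were 9.50, 9.54 and 9.22 in PV, 8.53, 9.42 and 9.26 in Drd4, 8.95, 9.30 and 8.78 in Grik4, and 9.05, 9.0 and 8.91 in Opn4 arrays. In the other arrays there was a lowest level under the floor, a median of 4.50 and a highest of 7.27. The ganglion arrays did not overlap with any other array. The highest other set was Gja10 with 7.20, 7.13 and 7.27, and the amacrine line Fbxo32 came next with 7.20, 5.94 and 6.29. Nefl averaged 9.12 ± 0.20 in the ganglion lines and 5.16 ± 1.11 in the amacrine lines, a difference of 3.96 (SE 0.47, adjusted p = 3.36e-05). It was also called against bipolar (5.34, SE 0.55), photoreceptor (4.98, SE 0.60) and microglia (4.50, SE 0.87) lines, and not against the horizontal line (1.92, SE 0.87, adjusted p = 0.68).

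Nefm encodes the medium chain. Its levels were 7.11, 7.56 and 7.06 in PV, 7.32, 7.51 and 7.81 in Drd4, 6.44, 7.26 and 7.49 in Grik4, and 7.05, 6.63 and 6.57 in Opn4 arrays. The 66 other arrays had a lowest level of 2.55, a median of 4.14 and a highest of 6.71. A single other array, replicate 1 of Fbxo32 at 6.71, lay above the lowest ganglion array, and the highest other set was the amacrine line Ier5 with 5.82, 6.40 and 6.39. Nefm averaged 7.15 ± 0.33 in the ganglion lines and 4.83 ± 1.01 in the amacrine lines, a difference of 2.32 (SE 0.42, adjusted p = 3.70e-03). With the lines of batch 3 alone the difference was 2.61 and with those of batch 1 alone 2.66, and neither passed the test. It was called against bipolar (3.60, SE 0.49), photoreceptor (3.87, SE 0.53) and microglia (2.68, SE 0.78) lines. The microglia call was lost without replicate 1 (2.73) or replicate 3 (2.65), without the Drd4 line (2.55), without the lines of low array correlation (2.55) and within batch 3 (2.65).

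Nefh encodes the heavy chain, whose tail carries many phosphorylation sites. Its levels were 4.61, 5.14 and 3.92 in PV, 4.03, 4.04 and 5.23 in Drd4, 3.36, 4.18 and 4.43 in Grik4, and 4.62, 4.76 and 4.51 in Opn4 arrays. Of the 66 other arrays, which had a lowest level of 2.67, a median of 3.40 and a highest of 6.04, 37 lay above the lowest ganglion array. The highest set mean was that of the amacrine set Arc 1st, with 4.92, 4.57 and 6.04, and Igfbp2 followed with 5.25, 4.78 and 4.84. Nefh averaged 4.40 ± 0.29 in the ganglion lines and 3.74 ± 0.65 in the amacrine lines, a difference of 0.66 (SE 0.28, adjusted p = 0.229) that was not called. It was called against the bipolar lines alone (1.28, SE 0.32, adjusted p = 0.0205), and that call was lost without the Opn4 line (1.20), within batch 3 (1.11) or batch 1 (1.43), and without the lines of low array correlation (1.27).

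Rbpms encodes an RNA-binding protein found across ganglion cell types. Its levels were 6.97, 7.16 and 7.15 in PV, 5.93, 6.93 and 7.79 in Drd4, 6.24, 6.46 and 6.87 in Grik4, and 7.16, 7.50 and 7.35 in Opn4 arrays. Outside the ganglion class arrays had a lowest level of 2.74, a median of 3.08 and a highest of 4.64. The groups did not overlap, and the median of the other arrays lay below the median of all values. The highest other sets were the microglia line with 4.38, 4.44 and 4.60 and the amacrine line Crh with 3.41, 4.60 and 4.64. Rbpms averaged 6.96 ± 0.34 in the ganglion lines and 3.27 ± 0.41 in the amacrine lines, a difference of 3.69 (SE 0.21, adjusted p = 7.16e-10). Rbpms was called against every class: 3.88 (SE 0.24) against bipolar, 3.92 (SE 0.26) against photoreceptor, 3.81 (SE 0.39) against horizontal and 2.48 (SE 0.39) against microglia lines.

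Nrn1 encodes neuritin, a lipid-anchored protein of the cell surface that promotes neurite growth. Its levels were 6.56, 6.48 and 6.41 in PV, 6.09, 7.56 and 7.65 in Drd4, 6.09, 6.29 and 6.66 in Grik4, and 7.35, 7.11 and 6.99 in Opn4 arrays. Other arrays reached a highest level of 3.77, and 30 of the 66 were at or below the floor: 19 of 33 amacrine, 6 of 15 photoreceptor, 4 of 12 bipolar, 1 of 3 horizontal and 0 of 3 microglia arrays. None of the 22 other sets averaged above the median of all values, the highest being Crh with 2.07, 3.77 and 2.75. Nrn1 thus entered the tests through its ganglion levels alone, so its p-values are no independent support for a higher level there. Nrn1 averaged 6.77 ± 0.42 in the ganglion lines. With values raised to the floor it was higher there by at least 4.59 than in amacrine lines (SE 0.16, adjusted p = 3.14e-13), at least 4.70 than in bipolar (SE 0.19), at least 4.42 than in photoreceptor (SE 0.21) and at least 4.71 than in horizontal lines (SE 0.31), all called. Against the microglia line, which had no array at the floor, the difference was 4.35 (SE 0.35), also called.

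Thy1 encodes a lipid-anchored surface glycoprotein of the immunoglobulin family, long used to purify rodent ganglion cells. Its levels were 7.73, 8.25 and 8.05 in PV, 6.40, 7.52 and 7.86 in Drd4, 6.58, 6.63 and 6.77 in Grik4, and 6.95, 6.89 and 6.89 in Opn4 arrays. In the other arrays there was a lowest level under the floor, a median of 5.07 and a highest of 7.88, and 14 of them lay above the lowest ganglion array. The amacrine line Ier5, with 7.79, 7.88 and 7.54, had a higher mean than the Drd4, Opn4 and Grik4 lines, and Arc 1st, with 7.14, 6.91 and 7.23, a higher mean than Opn4 and Grik4. Thy1 averaged 7.21 ± 0.59 in the ganglion lines and 6.05 ± 1.03 in the amacrine lines, a difference of 1.16 (SE 0.52, adjusted p = 0.26) that was not called. It was called against bipolar (3.22, SE 0.61) and photoreceptor (3.43, SE 0.66) lines, and not against the horizontal (3.53, SE 0.96, adjusted p = 0.111) or the microglia line (2.78, SE 0.96, adjusted p = 0.0686), where it was called without replicate 2 (3.15) or within batch 3 (2.51).

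Uchl1 encodes a ubiquitin hydrolase abundant in neurons, also known as PGP9.5. Its levels were 8.69, 9.0 and 9.04 in PV, 8.68, 9.24 and 9.67 in Drd4, 8.72, 8.82 and 8.75 in Grik4, and 9.17, 9.31 and 9.39 in Opn4 arrays. The 66 other arrays had a lowest level of 2.10, a median of 5.48 and a highest of 8.78. Of these, 2 lay above the lowest ganglion array, both from the amacrine line Igfbp2, whose levels of 8.70, 8.78 and 8.64 overlapped with those of PV, Drd4 and Grik4. Uchl1 averaged 9.04 ± 0.25 in the ganglion lines and 6.64 ± 1.23 in the amacrine lines, a difference of 2.41 (SE 0.52, adjusted p = 0.0161). The call was lost without the Drd4 (2.35) or the Opn4 line (2.32), within batch 3 (1.49), within batch 1 (2.71) and without the lines of low array correlation (2.41). The difference was 3.91 (SE 0.62) against bipolar, 5.65 (SE 0.66) against photoreceptor and 5.40 (SE 0.97) against microglia lines, all called, and 1.12 (SE 0.97, adjusted p = 0.995) against the horizontal line.

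S100a10 encodes p11, an EF-hand protein that binds annexin A2. Its levels were 9.55, 9.17 and 9.05 in PV, 8.63, 9.87 and 9.59 in Drd4, 9.26, 9.41 and 9.19 in Grik4, and 9.26, 9.05 and 9.25 in Opn4 arrays. Outside the ganglion class arrays had a lowest level of 2.12, a median of 3.56 and a highest of 6.47. The groups did not overlap, and the gap between the lowest ganglion set mean and the highest other set mean, Igfbp2 with 6.24, 5.72 and 6.05, was 3.18. S100a10 averaged 9.27 ± 0.07 in the ganglion lines and 3.99 ± 0.94 in the amacrine lines, a difference of 5.28 (SE 0.41, adjusted p = 1.04e-07). It was called against every other class too, by 5.57 (SE 0.48) for bipolar, 5.48 (SE 0.52) for photoreceptor, 4.11 (SE 0.75) for horizontal and 3.99 (SE 0.75) for microglia lines.

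Tppp3 encodes a member of the family of proteins that promote tubulin polymerisation. Its levels were 10.45, 10.52 and 10.64 in PV, 9.45, 10.15 and 10.31 in Drd4, 9.37, 9.76 and 9.35 in Grik4, and 9.68, 9.62 and 9.58 in Opn4 arrays. Other arrays had a lowest level under the floor, a median of 5.31 and a highest of 7.90. The groups did not overlap, and the horizontal line was again the highest other set, with 7.64, 7.65 and 7.90. Tppp3 averaged 9.91 ± 0.47 in the ganglion lines and 5.78 ± 0.44 in the amacrine lines, a difference of 4.13 (SE 0.36, adjusted p = 6.37e-07). Tppp3 was also called against bipolar (5.81, SE 0.43), photoreceptor (6.59, SE 0.46, or 6.25 with values raised to the floor) and microglia (5.10, SE 0.67) lines, and not against the horizontal line (2.18, SE 0.67, adjusted p = 0.224).

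Each ganglion line was also set against the amacrine sets of its own batch, over all arrays. PV was compared with Arc 1st, ChAT, Fam81a and Ier5 of batch 1, the other lines with Arc 3rd, Igfbp2, Rgs5 and Crh of batch 3. The number of members called, all higher in the ganglion line, was 9 of 10 for PV (2.4% of all genes called), 9 for Drd4 (9.44%), 8 for Grik4 (5.32%) and 9 for Opn4 (2.95%). Nefh was called in none of the 4 comparisons, with differences of 0.60 in PV, 0.49 in Drd4, 0.05 in Grik4 and 0.69 in Opn4. Nrn1, which passed the filter on dim genes through the ganglion sets alone, is counted in all 4. The p-values of these comparisons rest on the spread among replicate arrays, pooled over all 26 sets, and leave out variation between repeat measurements of a line. The 3 lines of batch 3 share their amacrine sets.

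Sncg differed by nearly the same amount in each line, 6.07 in PV, 5.86 in Drd4, 5.96 in Grik4 and 6.05 in Opn4 (SE 0.41 each). Rbpms differed by 4.02, 3.47, 3.11 and 3.92 in the same order of lines (SE 0.19). Nrn1 was at or near the floor in most amacrine sets compared, and was higher by at least 4.47, 4.83, 4.08 and 4.89 with values raised to it (SE 0.20). Uchl1 in the Grik4 line, at 1.17 (SE 0.40, adjusted p = 0.0568), was the single member besides Nefh that missed the threshold. Thy1 passed in all 4, at 1.71 in PV, 1.65 in Drd4, 1.05 in Grik4 (adjusted p = 0.045) and 1.30 in Opn4. The batch 1 amacrine sets ran from a Thy1 mean of 3.92 in ChAT to 7.74 in Ier5, whose arrays overlapped with those of PV (mean 8.01). PV was not compared without ChAT. The call of Thy1 in Grik4 was lost without any of the replicates (1.00 to 1.13), that in Opn4 likewise (1.22 to 1.45), and that in PV without replicate 3 (1.52). The Uchl1 call was lost in Drd4 without replicate 3 (1.34) and in Opn4 without replicate 2 (1.74) or 3 (1.62). Beside these comparisons, markers of other cells were called higher in Grik4 (8 of 9 microglia, 5 of 8 pigment epithelium and 3 of 6 endothelial genes) and in Drd4 (5 of 7 bipolar, 5 of 7 Müller glia or astrocyte and 3 of 6 endothelial genes), and their part in the result was not tested. Of the 7 amacrine markers, 6 were called lower in PV, 5 in Drd4, 5 in Grik4 and 6 in Opn4 than in these amacrine sets.

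**Figure D4:**
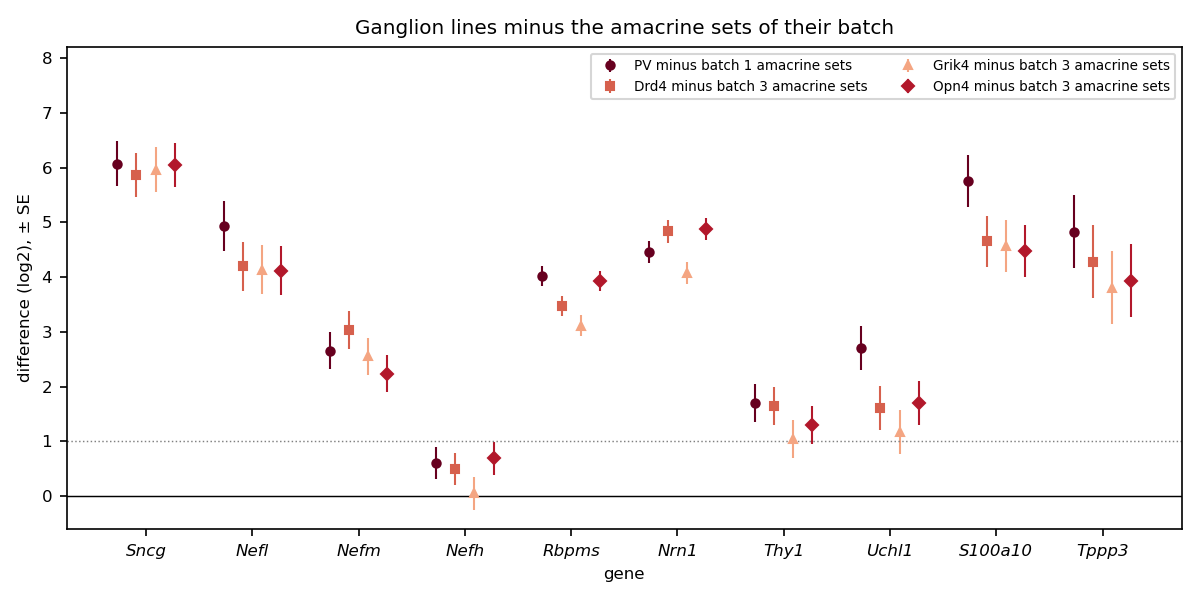
Difference in log2 intensity of each gene between a ganglion line and the mean of the amacrine sets of its batch, with bars of 1 SE; symbols stand for PV, Drd4, Grik4 and Opn4, the dotted line is the threshold of 1, and Nrn1 is drawn with values raised to the floor, as a lower bound. Sncg stands near 6 in all 4 lines (5.86 to 6.07), and Nefh below 1 in all 4 (0.05 to 0.69).

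Among the ganglion lines of batch 3, none of the 10 members was called in any of 3 comparisons: Opn4 minus Drd4 (4.36% of all genes called), Grik4 minus Drd4 (2.47%) and Grik4 minus Opn4 (1.7%). At an unadjusted p below 0.05 the counts of members were 0, 1 and 2 in that order, where 19.7%, 16.5% and 9.97% of all genes passed. The interval of Opn4 minus Drd4 was -0.84 to 1.22 for Sncg and -1.22 to 1.05 for Nefl (95% confidence, difference 0.19 and -0.08), so differences of up to 1 log2 unit were within reach of the error. The 3 arrays of a set limit the precision of all of these values.

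The members closest to a difference were Rbpms and Nrn1. Rbpms was at 6.24, 6.46 and 6.87 in Grik4 against 7.16, 7.50 and 7.35 in Opn4, a difference of -0.81 (SE 0.24, adjusted p = 0.0547), with arrays that did not overlap, as held for 18.3% of all genes. Nrn1 was at 6.09, 6.29 and 6.66 in Grik4 against 7.35, 7.11 and 6.99 in Opn4, a difference of -0.81 (SE 0.28, adjusted p = 0.157), also without overlap. In the same comparison 3 of 7 amacrine markers (Slc32a1, Gad1 and Tfap2b), 8 of 9 microglia and 3 of 6 endothelial markers were called higher in Grik4, and their part in these levels was not tested. Between Grik4 and Drd4, Nrn1 differed by -0.75 (SE 0.28, adjusted p = 0.132). Without replicate 1 the difference was -1.13 (2.48% of all genes called) and with array weights -1.06 (6.12%), both called. In the Drd4 line replicate 1 had the lowest level of the 3 arrays for all 10 members. Nrn1 was at 6.09 there, against 7.56 and 7.65, Rbpms at 5.93 against 6.93 and 7.79, and Thy1 at 6.40 against 7.52 and 7.86. The same array had the highest sums of bipolar, photoreceptor and Müller glia markers, whose part in these levels was not tested.

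Against the mean of the 3 other ganglion lines, 1 of 10 members was called in PV (6.05% of all genes called). Thy1 was at 7.73, 8.25 and 8.05 in PV against a mean of 6.94 in the others, a difference of 1.06 (SE 0.36, adjusted p = 0.0405), and replicate 3 of Drd4, at 7.86, overlapped with PV. PV was measured in batch 1 and the others in batch 3, so line and batch cannot be told apart by these arrays. The PV cells were also picked through a reporter under Thy1 regulatory sequence, whose part in the Thy1 difference was not tested. With batch as a term, estimated from the repeated Arc and b2 sets, the Thy1 difference was -0.35 (SE 0.64, adjusted p = 0.926). There Arc 2nd, whose labels give no batch, was taken as batch 2. With Arc 2nd left out the Thy1 difference was -0.74 (SE 0.66, adjusted p = 0.854). In that fit the step from batch 1 to batch 3 rests on the Arc line alone, where Thy1 averaged 7.09 in Arc 1st and 5.29 in Arc 3rd. With each line first set against the amacrine sets of its own batch it was 0.37 (SE 0.42, adjusted p = 0.854), and by that measure none of the 10 members was called while 1.51% of all genes were. Leaving out any of the replicates also ended the call (0.98 to 1.16), as did array weights (0.96). Tppp3 was at 10.45, 10.52 and 10.64 in PV, above all 9 other ganglion arrays, with a difference of 0.84 (SE 0.69, adjusted p = 0.461). In this comparison 9.66% of all genes had no overlap, in either direction.

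In the order of the 26 set means, neighbouring ganglion lines overlapped in their arrays for every member except PV over Drd4 for Tppp3 and Opn4 over Grik4 for Thy1. The step below the lowest ganglion line was free of overlap with the next set for Sncg, Nefl, Nefm, Rbpms, Nrn1, S100a10 and Tppp3. For Uchl1 the step from Grik4 at 8.76 to Igfbp2 at 8.71 was within the spread of arrays. For Nefh the order ran Arc 1st 5.18, Igfbp2 4.96, Opn4 4.63, PV 4.56, Arc 2nd 4.54 and Drd4 4.43, with Gja10, ChAT and then Grik4 at 3.99 below.

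Outside the ganglion lines the members did not move as a block. In the horizontal line Gja10, 5 of 10 members were called against the amacrine sets of batch 3 (4.78% of all genes called). Sncg was higher by 3.97 (SE 0.41, adjusted p = 2.24e-11), Nefl by 2.33 (SE 0.45, adjusted p = 1.29e-04), Nefm by 1.36 (SE 0.34, adjusted p = 5.36e-03) and Tppp3 by 2.04 (SE 0.67, adjusted p = 0.0453), while Thy1 was lower, with a difference of -1.93 (SE 0.35, adjusted p = 3.74e-05). The Thy1 levels were 3.80, 3.37 and 3.87 in Gja10 arrays and averaged 5.61 in the amacrine sets. Rbpms (-0.27), S100a10 (0.45), Uchl1 (0.33) and Nefh (0.35) were not called, nor was Nrn1, which lay near the floor on both sides. The Tppp3 call was lost without any replicate (1.93 to 2.13) and without the Crh set (2.04), and the Nefm call without replicate 1 (1.01) or 2 (1.47). All 5 measured markers of horizontal cells averaged above the median of all values in Gja10 and 4 were called higher, while 0 of 7 bipolar, 0 of 9 microglia and 0 of 6 endothelial markers were called. Photoreceptor, Müller glia and other marker lists are not counted here. The sets compared include Crh, with high sums of photoreceptor and Müller glia markers, and the part of other cells was not tested.

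**Figure D5:**
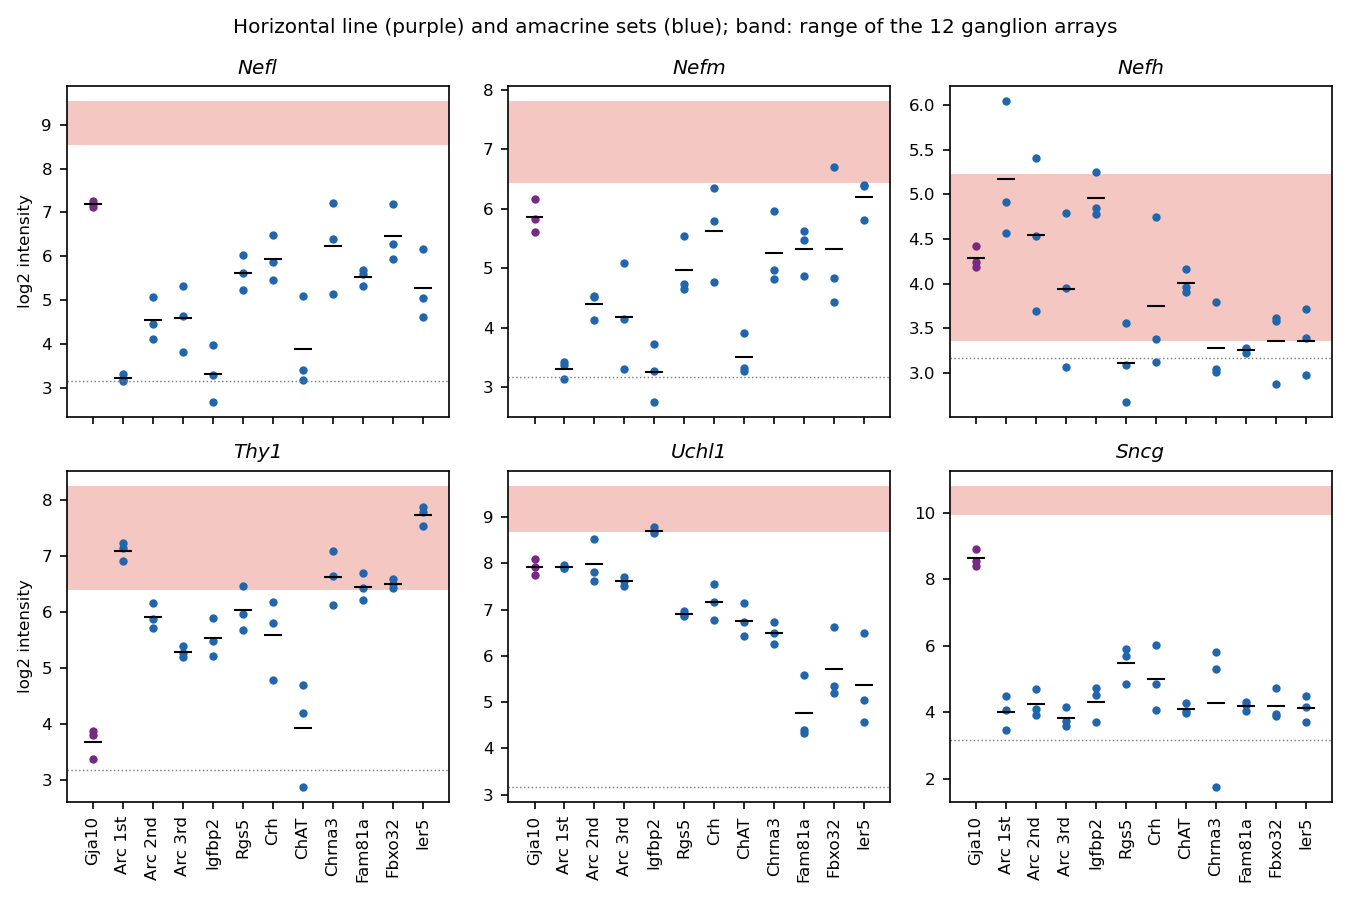
Log2 intensity of Nefl, Nefm, Nefh, Thy1, Uchl1 and Sncg in the Gja10 horizontal set (purple) and the 11 amacrine sets (blue), 1 point per array with a bar at the mean; the band spans the 12 ganglion arrays. Gja10 arrays reach 7.27 for Nefl and 8.91 for Sncg, and the bands of Nefh, Thy1 and Uchl1 hold arrays of amacrine sets.

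Members were also called between amacrine lines. Each amacrine set of batches 1 and 3 was set against the other 3 amacrine sets of its batch, and 16 member calls were made in 8 comparisons. In batch 1 the members called were 4 for Arc 1st (1.73% of all genes called), 2 for ChAT (2.11%), 1 for Fam81a (0.808%) and 2 for Ier5 (1.05%). In batch 3 they were 0 for Arc 3rd (0.483%), 3 for Igfbp2 (0.781%), 1 for Rgs5 (0.934%) and 3 for Crh (14.9%). None of the 16 calls was of Sncg, Nrn1, S100a10 or Tppp3.

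Arc 1st and Igfbp2 shared a pattern of neurofilament chains in opposite directions. In Arc 1st, Nefh differed by 1.63 (SE 0.31, adjusted p = 2.64e-04), while Nefl, at 3.16, 3.20 and 3.33, differed by -1.68 (SE 0.46, adjusted p = 0.0323) and Nefm by -1.70 (SE 0.35). In Igfbp2, Nefh differed by 1.36 (SE 0.31, adjusted p = 7.91e-03), while Nefl, at 2.69, 3.30 and 3.99, differed by -2.06 (SE 0.46) and Nefm by -1.68 (SE 0.35). The Nefl means of Arc 1st (3.23) and Igfbp2 (3.33) were near the median of all values, whereas their Nefh levels reached those of the ganglion arrays. With replicates left out in turn, the Nefl calls were lost each time in both sets and the Nefh call of Igfbp2 too, with Nefh at 1.04 to 1.61. The Nefh call of Arc 1st was lost without replicate 3 (1.18), its Nefm call without replicate 2 (-1.59), and the Nefm call of Igfbp2 without replicate 2 (-1.22) or 3 (-1.55). Arc 1st was also higher in Uchl1, by 2.29 (SE 0.41, adjusted p = 1.30e-04). The pattern of Arc 1st was less marked when the Arc line was measured again. Nefh averaged 5.18 in Arc 1st, 4.54 in Arc 2nd and 3.94 in Arc 3rd. Nefl averaged 3.23, 4.56 and 4.60 in the same order, and Nefm 3.31, 4.39 and 4.19. No neurofilament gene was called between Arc sets, nor in Arc 3rd against the other batch 3 amacrine sets.

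Thy1 ranged widely over amacrine lines. In ChAT, the starburst amacrine line, it was at 4.69, 4.19 and 2.88, against a mean of 7.09 in the other batch 1 amacrine sets, a difference of -3.17 (SE 0.36, adjusted p = 9.96e-10). In Ier5 it was higher by 1.92 (SE 0.36, adjusted p = 3.98e-04), and all 3 arrays lay inside the range of the ganglion arrays. Ier5 was also higher in Nefm, by 2.15 (SE 0.35, adjusted p = 4.18e-05), and ChAT was lower, with a difference of -1.44 (SE 0.35, adjusted p = 8.32e-03). Fam81a was lower in Uchl1 (-1.92, SE 0.41, adjusted p = 4.12e-03) with 4.33, 5.58 and 4.39. Leaving out replicate 2 (-1.72) or 3 (-1.26) ended the Nefm call of ChAT, and leaving out replicate 1 (-1.57) or 3 (-1.71) the Uchl1 call of Fam81a.

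The Crh line was called higher for Nefl (1.43, SE 0.46), Nefm (1.50, SE 0.35) and Rbpms (1.07, SE 0.19, adjusted p = 3.38e-05), in a set whose arrays correlated least. Its replicates 2 and 3 had Rbpms at 4.60 and 4.64 and replicate 1 had 3.41. The calls were lost without replicate 2 (Nefl 1.09, Nefm 1.15 and Rbpms 0.93), and that of Rbpms also without replicate 3 (0.85). Over the 3 Crh arrays photoreceptor markers summed to 311 to 2796 and Müller glia markers to 885 to 4189, against at most 147 and 884 in the other batch 3 amacrine sets, and their part in these calls was not tested. Rgs5 was called lower for Nefh alone (-1.10, SE 0.31, adjusted p = 0.0476), a call lost without replicate 2 (-0.96) or 3 (-0.83).

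Between the bipolar lines of batch 3, 1 of 10 members was called (0.901% of all genes called). Thy1 was at 4.76, 5.19 and 4.32 in Kcng4 and 3.12, 2.79 and 3.09 in Lhx4, without overlap, as held for 15.9% of all genes. The difference was 1.76 (SE 0.44, adjusted p = 0.0271), a call lost without any of the replicates (1.44 to 2.02). Repeated sets of a line gave 2 member calls in 6 comparisons, both of Thy1. Arc 1st, with 7.14, 6.91 and 7.23, was higher than Arc 3rd, with 5.26, 5.20 and 5.40, by 1.81 (SE 0.44, adjusted p = 0.0331), where 0.457% of all genes were called, a call lost without any of the replicates (1.77 to 1.85). The b2 2nd set, with 3.37, 2.43 and 4.11, differed from the b2 single set, with 6.33, 4.05 and 5.59, by -2.02 (SE 0.44, adjusted p = 4.05e-03), where 2.03% of all genes were called, a call lost without replicate 1 (-1.55). No member was called for Arc 1st minus Arc 2nd (0.053% of all genes called), Arc 2nd minus Arc 3rd (0.0728%), b2 1st minus b2 2nd (2.08%) or b2 1st minus b2 single (1.19%).

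Relatives of the members were counted from a list of 14 genes, of which 13 were tested. Against amacrine lines 5 of 13 were called higher and 0 lower, where 1.33% of all genes were called and 1.17% called higher, with a median difference of 1.08 against 0.01 over all genes. The called relatives were Anxa2 (3.30, SE 0.40), which encodes the annexin partner of p11, Rbpms2 (2.52, SE 0.15), a close relative of Rbpms, Prph (2.35, SE 0.50) and Ina (1.41, SE 0.32), which encode the filament proteins peripherin and alpha-internexin, and S100b (1.08, SE 0.22). Rbpms2 averaged 5.61 in Opn4, 5.52 in Drd4, 5.34 in Grik4 and 4.68 in PV, above 3.18 in the next set. Sncb, which encodes beta-synuclein, differed by -0.83 (SE 0.39, adjusted p = 0.287).

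Several of these relatives were called between ganglion lines. Of all genes, 4.36% were called for Opn4 minus Drd4, 2.47% for Grik4 minus Drd4 and 1.7% for Grik4 minus Opn4. With the spread taken from only the arrays compared, these shares were 0.457%, 0.0331% and 0.258%. The calls of the relatives were not checked in that setting. Prph averaged 7.89 in Opn4, 6.13 in Grik4, 3.96 in Drd4 and 3.58 in PV. It was called for Opn4 minus Drd4 (3.93, SE 0.28, adjusted p = 5.93e-16), Grik4 minus Drd4 (2.17, SE 0.28) and Grik4 minus Opn4 (-1.76, SE 0.28). Anxa2 averaged 7.22 in PV, 6.87 in Grik4, 6.23 in Opn4 and 4.71 in Drd4, and was called for Opn4 minus Drd4 (1.52, SE 0.38) and Grik4 minus Drd4 (2.16, SE 0.38). Most of the microglia markers and a smaller share of the endothelial markers were called higher in Grik4 than in Drd4 or Opn4. Their part in the calls of relatives with Grik4 was not tested. S100a6 and S100a1 were called lower in Opn4 than in Drd4, with differences of -2.78 (SE 0.88) and -1.99 (SE 0.51). Of 7 Müller glia and astrocyte markers 3 were called lower in the same comparison, with sums of 396 to 1960.4 in Opn4 against 2006 to 7662 in Drd4 arrays, and their part in these calls was not tested.

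Of 16 genes of the axonal cytoskeleton 15 were tested, and 3 were called higher and 0 lower in ganglion than in amacrine lines (1.33% of all genes called, 1.17% higher), with a median difference of 0.27. These were Tubb3 (2.53, SE 0.43, adjusted p = 2.20e-03), which encodes the neuronal tubulin beta III, Stmn2 (2.30, SE 0.47), a regulator of microtubules in growing axons, and Gap43 (2.15, SE 0.56, adjusted p = 0.0449), a protein of growth cones. Tubulin beta III did not overlap between ganglion and amacrine arrays, as held for 0.166% of all genes. The microtubule-associated genes Mapt (0.28), Map1a (0.21), Map1b (0.46) and Map2 (-0.08), the kinesins Kif5a (0.29), Kif1b (0.27) and Kif21a (0.17), the dynein heavy chain Dync1h1 (0.08), and the membrane skeleton genes Ank3 (0.08), Sptan1 (0.30), Sptbn1 (0.11) and Dst (0.15) were not called.

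Of 12 other markers of ganglion cells 10 were tested, and 5 were called higher and 0 lower than in amacrine lines (1.33% of all genes called, 1.17% higher), with a median difference of 1.42. Jam2, an adhesion molecule, differed by 3.54 (SE 0.55), Isl1, a transcription factor, by 3.40 (SE 0.80), Slc17a6 by 2.61 (SE 0.21), Chrnb3, a nicotinic receptor subunit, by 2.09 (SE 0.16) and Pou4f1 by 2.05 (SE 0.22). Isl1 was higher in all 4 bipolar lines (8.86 to 9.38) and in ChAT (8.98) than in any ganglion line, and Jam2 reached 7.52 in the Chrnb4 cone line. In the Grik4 line 4 of the 10 were called lower than in Drd4, where 2.47% of all genes were called and 1% called lower: Pou4f1 (-1.36, SE 0.29), Pou4f3 (-1.18, SE 0.27), Slc17a6 (-1.12, SE 0.28) and Elavl2 (-1.01, SE 0.20). In the same comparison 7 of 9 microglia, 3 of 8 pigment epithelium, 1 of 6 endothelial and 2 of 7 amacrine markers, Slc32a1 (1.03, SE 0.31) and Gad1 (1.27, SE 0.31), were called higher in Grik4, and 3 of 7 bipolar markers lower. Their part in the lower ganglion cell markers was not tested. With the spread taken from only the arrays of Grik4 and Drd4, 0.0331% of all genes were called. The 4 lower ganglion cell markers were not checked in that setting.

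Over the 26 set means the 45 pairs of members correlated with a Pearson r from 0.25 (Nefm and Nefh) to 0.97 (Rbpms and Nrn1), with a median of 0.72. Over the 22 sets outside the ganglion class r ran from -0.27 (Sncg and Thy1) to 0.82 (Nefl and Nefm), with a median of 0.24. These are descriptions across sets that share arrays, batches and normalisation. Outside the members, the genes whose profile was most like the mean standardised profile of the 10 were Chrnb3 (r = 0.93), Selenov (0.93), Atp6ap1l (0.92), Fbxo2 (0.92) and Clvs2 (0.91). Chrnb3 averaged 5.42 in PV, 5.34 in Grik4, 5.18 in Drd4 and 5.0 in Opn4, and 3.71 in Igfbp2, the next set. For single members, the most similar profile was that of another member for Sncg (S100a10, 0.91), Nefl and Nefm (each other, 0.92), Rbpms (Nrn1, 0.97) and S100a10 (Nrn1, 0.94). It was that of a gene outside the members for Nrn1 (Rbpms2, 0.98), Uchl1 (Lhfpl5, 0.94), Tppp3 (Fbxo2, 0.89), Thy1 (Ccdc184, 0.86) and Nefh (Dclk1, 0.82).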

How the data were processed

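Adult mouse retina cells of 22 lines were measured on 78 arrays. Per the submitters' processing notes, RMA, oligo, R 2.11.1 and mm9 were named; their settings are not given in the sources used here. The deposited intensity values were normalised by the authors so that the sorted values of every array are identical (largest difference 0). They are linear, from 0.0238 to 5770, and log2 of the deposited values was taken here. Of 22347 probe sets, 19446 had 1 gene symbol, 735 had several and 2166 were not listed in the annotation used. No pair of arrays was identical. A floor at 2.00 (log2) holds 10.5% of values, and 4199 dim genes were left out. The number of arrays limits the precision.

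Tests used limma 3.58.1 in R 4.3.3 with a mean-variance trend, on 22 line means for classes and on 78 arrays with set means otherwise, and were tested on simulated data. P-values over arrays rest on the spread among the 3 replicate arrays within a set, pooled over all 26 sets, and not on the sets compared alone. Replicate numbers did not pair samples: residuals correlated at 0.000207 for the same number and -2.7e-05 for others, and at -0.34 to 0.23 in 9 pairs of batch 3 ganglion arrays. The members, gene lists and tests were chosen with earlier results of these data known. The genes named are the 10 members, the called genes of the lists and the most similar profiles. Alternatives were the dim-gene filter, values raised to the floor, the mean of probe sets, no trend, each replicate or ganglion line left out, batches alone, a replicate block, array weights, only the arrays compared and batch as a term. Arc 2nd, whose labels give no batch, was taken as batch 2 in that term. The difference of differences, the batch term without Arc 2nd and leaving out lines of low array correlation or the Crh set were chosen after seeing the data.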

Additional observations from a re-analysis of the deposited data

Results flagged for a closer look

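Among 50 groups of 4 or 9 lines or arrays, 4 had a highest value set apart from the others by Dixon's gap test. In a single uniform group chance gives this about 1 time in 20. The groups of Arc and b2 arrays pool 3 sets of a line from more than 1 batch, so that rate does not hold for them. Rbpms in the Crh line, at 4.22, stood above the other amacrine lines, the nearest at 3.51. Nrn1 in replicate 3 of the b2 2nd set was at 3.16, with the nearest b2 array at 2.13. S100a10 in the same array was at 4.92, with the nearest b2 array at 3.49. Uchl1 in replicate 2 of the Arc 2nd set was at 8.52, with the nearest Arc array at 7.96.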

How the results depend on the processing

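Of 3140 values of single members under alternatives, 3030 stayed on the same side of the threshold, 88 were no longer called and 20 became called. Changes of sign among values that were not called were not counted. The 2 remaining values lost a call and changed sign. Both were Thy1 in PV minus the other ganglion lines with batch as a term, at -0.35 with Arc 2nd taken as batch 2 and -0.74 with Arc 2nd left out. The second value takes its step between batches 1 and 3 from the Arc line alone. What lies behind the differences between repeated sets was not tested. Each member has 1 probe set, so the mean of probe sets could not move its difference. Lifting the dim-gene filter or the trend could not either, and these settings act on p-values alone. Many of the 3140 values also come from comparisons where the member was not called to begin with. The count of unchanged values is therefore no measure of robustness. With the lines of batch 1 alone, which leave a single ganglion line, members called numbered 4 against amacrine, 5 against bipolar and 5 against photoreceptor lines, in place of 8, 10 and 9, while 0.212%, 0.404% and 1.4% of all genes were called in place of 1.33%, 4.68% and 13.1%. Grik4 minus Drd4 gave 0 to 1 calls with replicates left out and 1 with array weights, in place of 0. PV minus the other ganglion lines gave 0 to 0 with replicates left out, and 0 with array weights, batch as a term (with or without Arc 2nd) or the difference of differences, in place of 1. With replicates left out, Gja10 gave 3 to 4 calls in place of 5, Kcng4 minus Lhx4 0 to 0 in place of 1 (0 with only the arrays compared), the amacrine sets 6 to 14 in place of 16, and repeated sets 0 to 1 in place of 2 (4 with array weights, 1 with only the arrays compared). With the replicate block the amacrine sets gave 16 calls, Gja10 5, PV 9, Drd4 9 and Opn4 9 against amacrine sets, PV minus the other ganglion lines 1, Kcng4 minus Lhx4 1 and repeated sets 2, all as without it. Grik4 gave 7 in place of 8, the call lost being that of Thy1 (1.05), and the 3 comparisons within batch 3 ganglion lines 0. With 3 arrays a set, and 1 line in the horizontal and microglia classes, differences near 1 log2 unit were often within the error.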
